A study of Homo sapiens with 6 samples.

Results

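Glucose is broken down by glycolysis to pyruvate and lactate, and a side route, the pentose phosphate pathway, turns glucose phosphate into ribose phosphate for nucleotides and into NADPH for biosynthesis and antioxidant defence. The genes described here are 34 genes of these routes out of 28565 genes in the count table, chosen by symbol, and all 34 were found. They are 17 glycolytic enzymes (lactate dehydrogenase included), 6 regulators of the PFKFB and PDK families, 4 plasma membrane transporters of glucose and lactate, and 7 genes of the pentose phosphate arm, where ME1, malic enzyme, was placed as another source of NADPH. Their levels were followed in HK-2 cells, an established human line derived from the proximal tubule of the kidney. Every library, 6 in all, was made from HK-2 cells that had received, by lipofection, a plasmid driving a long noncoding RNA named LncR2 in the sample titles. Cisplatin, a DNA-crosslinking drug, was applied for 0 h in 3 of them and for 24 h in the other 3. Libraries of cells with a control plasmid were not analysed here, so the effect of the lncRNA was not measured. The labels give no dose. None of the 6 libraries is labelled as kept for 24 h without cisplatin. Exposure to cisplatin therefore cannot be told apart from time after transfection.

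Proximal tubule cells in the kidney are known for a low use of glucose as fuel, whereas cultured lines run glycolysis at a high rate. The flow through glycolysis is set at the hexokinases, at phosphofructokinase, which the PFKFB enzymes control by making and degrading its activator, and at the pyruvate kinase step. The PDK kinases switch off pyruvate dehydrogenase and so keep pyruvate out of mitochondria. Lactate leaves or enters the cell through the monocarboxylate carriers SLC16A1 (MCT1) and SLC16A3 (MCT4).

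The 0 h libraries held between 5028881 and 5844246 counts and the 24 h libraries between 6022268 and 7248754, of which the 34 genes took 2.04% to 2.25%. Of 9 epithelial markers, 8 had at least 10 counts in every library, with KRT8 and KRT18 the keratins of simple epithelia among them, but the cadherin CDH1 had at most 1 count. Of 12 proximal tubule markers 8 were matched in the count table. Of these only GGT1 and MME reached 10 counts in every library, and CUBN, AQP1, SLC34A1, SLC5A2, ANPEP and DPEP1 had at most 6 counts in any. The other 4 markers were not analysed here. The summed level of endothelial markers was at most 0.724 CPM (counts scaled to a fixed library size) and that of leukocyte markers at most 1.81 CPM, while fibroblast markers summed to 14.4 to 15.5 CPM at 0 h and 15.6 to 19.0 CPM at 24 h. On the first principal component of all tested genes (39.3% of the variance), 0 h replicate 3 stood apart from its group. It was at 1.28, against -23.8 and -24.5 for the others at 0 h and 6.29 for 24 h replicate 1. On the second (27.7%), 0 h replicate 3 stood apart from all other libraries, at -30.4. There the others at 0 h were at 8.50 and -1.48, and those at 24 h ran from -5.27 to 15.9.

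Between 0 h and 24 h, SLC16A3, the carrier that exports lactate, rose by 0.46 ± 0.11 on the log2 scale, and PFKFB4, which makes and degrades the activator of phosphofructokinase, fell by 0.63 ± 0.15 (± standard error of the model, n = 3 libraries per group). These were the only calls among the 33 members that passed the filter on low counts, in the quasi-likelihood test of edgeR after adjusting for 13389 genes by Benjamini-Hochberg (adjusted p = 0.0305 and 0.0298). They make 3.03% of the members in each direction, beside 0.866% of all tested genes called higher, 2.08% called lower and 2.94% called in either direction. ALDOC, the brain-type aldolase, did not pass the filter. The other 31 members were not called. Their estimates were small, with 24 of 33 members above 0 and a median of 0.15 on the log2 scale, beside a median of -0.0016 for all genes tested. In bulk libraries fewer cells of a kind and less RNA per cell cannot be told apart. Both calls were fragile. SLC16A3 was called without 0 h replicate 1 or 3 and lost without any other single library, and PFKFB4 was called only without 0 h replicate 3.

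Fold changes here are relative to the typical gene, since libraries were scaled by TMM (trimmed mean of M values). Scaled instead by the totals that the authors used for their FPKM values (fragments per kilobase of transcript, relative to a library total), all genes shifted up by 0.24 on the log2 scale at 24 h. In that scaling 15 members were called higher and 0 lower, beside 17.6% of all tested genes called higher and 1.46% called lower. The members' median was then 0.39, and 28 of 33 members kept their sign over all alternatives tried while GAPDH, PKM, PFKFB3, SLC2A1 and RPE, all with estimates near 0, did not.

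**Figure D1:**
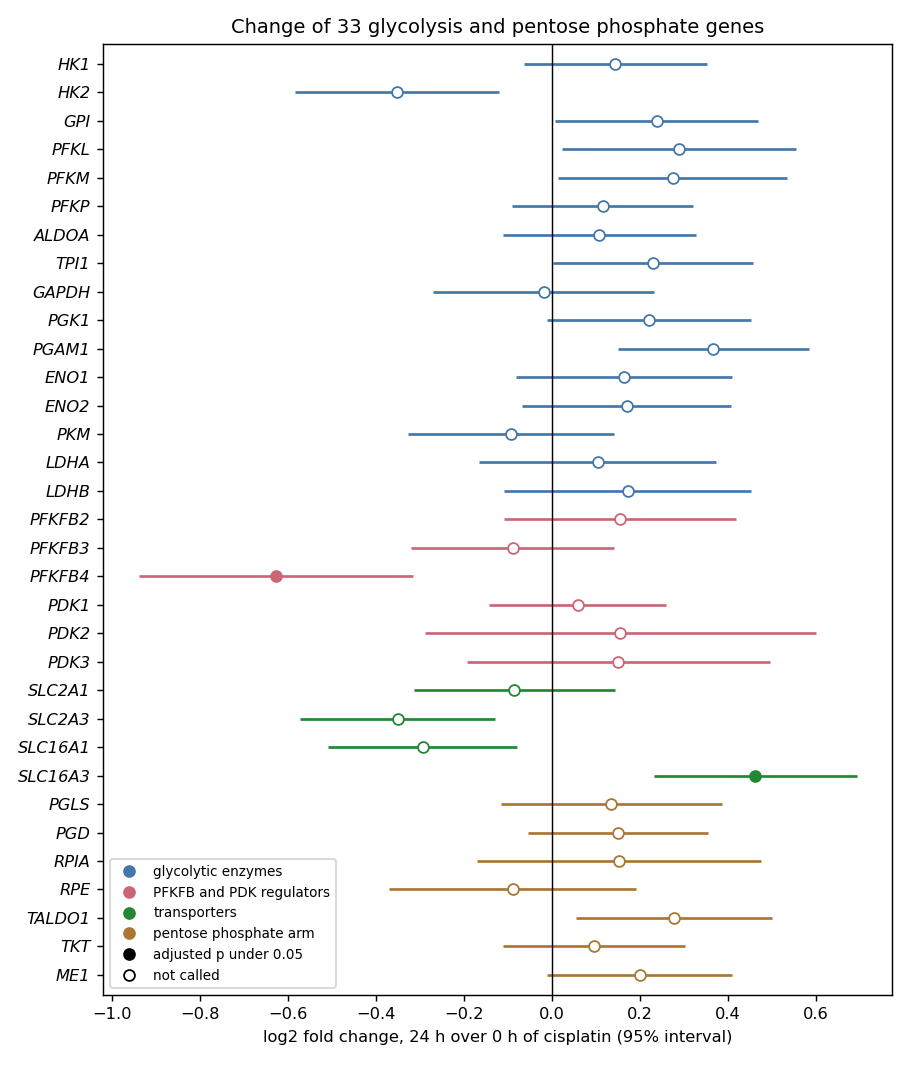
Log2 fold change from 0 h to 24 h of cisplatin for the 33 tested genes, with the 95% interval of the edgeR model as a horizontal line and colour for the 4 groups of genes. Filled points mark the 2 called genes, PFKFB4 at -0.63 and SLC16A3 at 0.46, and most enzymes and pentose phosphate genes lie a little above 0.

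The promoters of both called genes are shown because they moved in opposite directions, next to those of LDHA and PGK1, enzymes that were not called. Each run holds the 250 bases before the RefSeq start (GRCh38.p14), read 5′ to 3′ on the gene's strand. Capitals mark ACGTG, a form of the core that hypoxia-inducible factors bind (A or G, then CGTG), and its reverse complement. The form GCGTG was neither marked nor counted. A palindromic CACGTG, the E-box core, holds one match on each strand.
PFKFB4 (chr3:48556804-48557053, minus strand): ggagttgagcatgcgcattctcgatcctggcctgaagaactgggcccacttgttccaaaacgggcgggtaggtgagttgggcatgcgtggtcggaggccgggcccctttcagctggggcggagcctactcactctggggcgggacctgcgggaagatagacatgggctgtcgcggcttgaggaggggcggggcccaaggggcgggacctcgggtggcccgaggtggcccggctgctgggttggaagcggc
SLC16A3 (chr17:82228185-82228434, plus strand): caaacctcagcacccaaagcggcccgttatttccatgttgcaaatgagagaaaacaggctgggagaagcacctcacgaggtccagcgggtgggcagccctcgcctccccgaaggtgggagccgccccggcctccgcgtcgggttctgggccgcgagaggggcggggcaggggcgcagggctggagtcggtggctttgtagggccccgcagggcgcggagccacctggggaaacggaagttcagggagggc
LDHA (chr11:18394313-18394562, plus strand): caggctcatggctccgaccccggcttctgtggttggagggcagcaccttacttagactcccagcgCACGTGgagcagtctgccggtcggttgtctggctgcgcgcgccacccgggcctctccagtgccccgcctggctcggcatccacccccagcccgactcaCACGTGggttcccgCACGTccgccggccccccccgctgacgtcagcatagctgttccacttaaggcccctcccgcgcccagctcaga
PGK1 (chrX:78103998-78104247, plus strand): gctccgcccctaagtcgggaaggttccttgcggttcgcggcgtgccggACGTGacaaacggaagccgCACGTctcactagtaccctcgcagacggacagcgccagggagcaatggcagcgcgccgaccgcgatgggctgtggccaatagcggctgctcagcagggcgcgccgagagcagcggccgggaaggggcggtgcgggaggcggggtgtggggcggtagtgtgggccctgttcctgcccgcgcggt
The windows of PFKFB4 and SLC16A3 held 0 matches to ACGTG, that of LDHA held 5 and that of PGK1 held 2. RefSeq promoters were matched for 31 of the 34 genes, all except PFKFB2, SLC2A3 and SLC16A1. ACGTG stood on either strand in 10 of the 31 windows (32.3%), beside 18.5% of 35116 promoters of the same length. The 35116 take in every listed promoter, whereas each of the 31 genes gave only the first listed. Base composition was not matched between these sets. Glycolytic enzymes, with 17 of the 31 windows, held 8 of the 10 that had ACGTG. They were HK2, GPI, ALDOA, ALDOC, GAPDH, PGK1, ENO2 and LDHA, and the others were PDK3 and PGD. CACGTG, which contains ACGTG, was in 3 windows (9.68% beside 6.34%), those of ALDOC, GAPDH and LDHA. The antioxidant response core TGACNNNGC, where N is any base, was in 7 of 31 windows (22.6%, beside 10.9% of all). Of these, 3 were among the 7 windows of the pentose phosphate arm (PGD, RPE and ME1) and 4 among the 17 of glycolytic enzymes. These are matches of letters in a short window, and none of them was tested against the fold changes.

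The 17 glycolytic enzymes held most of the RNA of the 34 genes, with a summed FPKM of 4226 ± 308 at 0 h and 5285 ± 412 at 24 h (mean ± SD, n = 3 each). GAPDH, glyceraldehyde phosphate dehydrogenase, ENO1, enolase, and PKM, pyruvate kinase, made up 64.8% of that sum at 0 h and 62.2% at 24 h. The sum over the 7 pentose phosphate genes was 304 ± 5.03 FPKM at 0 h and 402 ± 38.1 FPKM at 24 h. For the 4 transporters it was 148 ± 3.50 and 160.3 ± 13.7 FPKM, and for the 6 regulators 42.9 ± 4.17 and 47.4 ± 1.37 FPKM. FPKM were as deposited, so the shift of all genes between the times is part of these sums. TKT, transketolase, was the highest of the pentose phosphate genes, SLC2A1, the glucose transporter GLUT1, the highest of the transporters, and PFKFB3 the highest regulator.

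**Figure D2:**
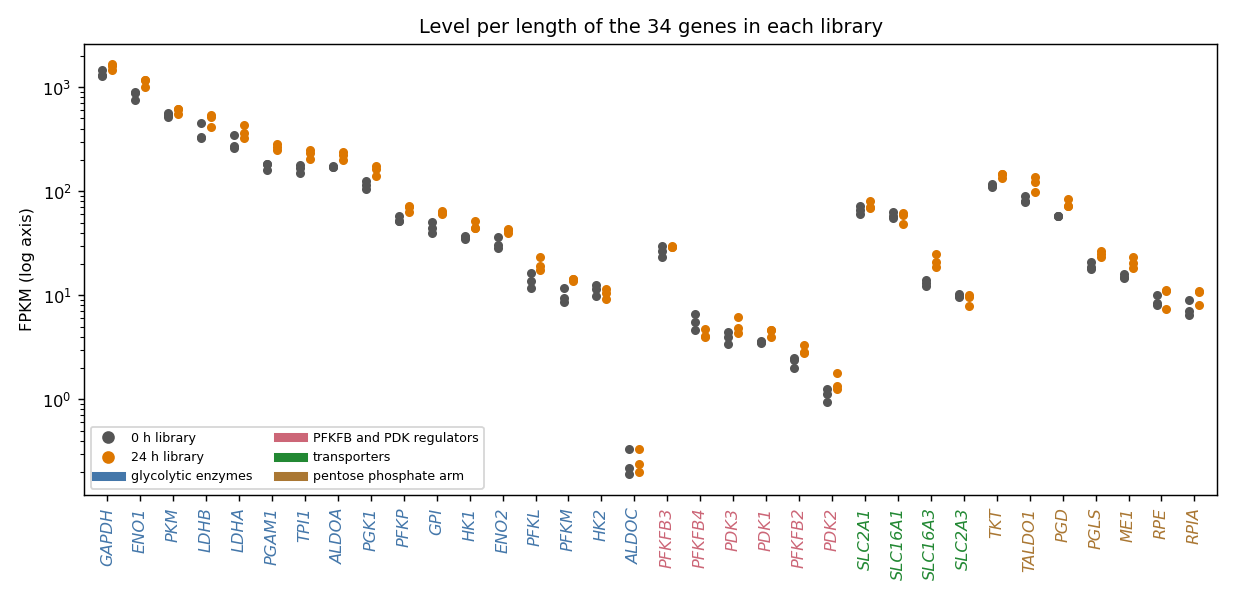
Deposited FPKM of each of the 34 genes on a log axis, with 0 h libraries in grey and 24 h libraries in orange, ordered by mean level within the 4 groups that the label colours show. Levels run from above 1277 FPKM for GAPDH to at most 0.33 FPKM for ALDOC, and the regulators other than PFKFB3 lie at or below 6.67 FPKM.

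Among the glycolytic enzymes 0 of 16 tested were called by edgeR, and 6 had an unadjusted p under 0.05, 5 of them above 0 and 1 below (37.5%, beside 18.1% of all tested genes in either direction, 8.22% above 0 and 9.93% below). DESeq2 called 1, PGAM1, beside 0.431% of all genes called higher and 0.739% called lower in that fit. These shares are over all 28565 genes of the count table, low counts included, and so are not on the same base as the others. The enzyme median was 0.17 on the log2 scale (0.40 scaled by the FPKM totals). The 24 h libraries lay above all 0 h libraries for 6 enzymes (PFKP, ALDOA, TPI1, PGK1, PGAM1 and ENO1) and below them for HK2. Over all 33 tested members the groups stood apart in this way for 11 above and 4 below, 33.3% and 12.1% of them, beside 10.9% and 11.7% of all tested genes.

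PGAM1, phosphoglycerate mutase, came nearest to a call among the enzymes. Its level was 593, 518 and 594 CPM in 0 h replicates 1, 2 and 3 and 743, 714 and 742 CPM in 24 h replicates 1, 2 and 3. All 24 h libraries were above all 0 h libraries, and the lowest value was that of 0 h replicate 2. The fold change was 0.37 ± 0.10 on the log2 scale with a 95% interval from 0.15 to 0.58, and it was not called (edgeR adjusted p = 0.0668). Over the 18 alternatives its adjusted p ran from 0.00284 to 0.324, and it passed in 8 of them, among them DESeq2, no filter on low counts and the fit without 0 h replicate 3.

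HK2, the inducible hexokinase that starts glycolysis, went the other way. It stood at 134, 119 and 105 CPM at 0 h and at 89.2, 101 and 89.8 CPM at 24 h, in replicates 1, 2 and 3 of each. The groups did not overlap, but 0 h replicate 3 and 24 h replicate 2 lay close to each other. The fold change was -0.35 ± 0.11 on the log2 scale (edgeR adjusted p = 0.0963), and it was called without 0 h replicate 3 (-0.43). HK1, the housekeeping hexokinase, was at 0.14 ± 0.10.

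The 3 subunits of phosphofructokinase, the committed step, had estimates of 0.29 ± 0.13 for PFKL, 0.27 ± 0.12 for PFKM and 0.12 ± 0.10 for PFKP. GPI, which isomerises glucose phosphate before that step, was at 0.24 ± 0.11, and TPI1, triose phosphate isomerase, at 0.23 ± 0.11. PFKL, PFKM, GPI and TPI1 had unadjusted p under 0.05 and edgeR adjusted p from 0.234 to 0.269. ALDOA, the aldolase of these cells, was at 0.11 ± 0.10. Below the aldolase step, PGK1, phosphoglycerate kinase, was at 0.22 ± 0.11, ENO1 at 0.16 ± 0.12, ENO2, the neuron-type enolase, at 0.17 ± 0.11 and PKM at -0.09 ± 0.11. None of these was called.

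GAPDH is often used as a reference gene. It stood at 5064, 5114 and 5821 CPM in 0 h replicates 1, 2 and 3 and at 5337, 5393 and 5061 CPM in the 24 h libraries. The groups overlapped, with 0 h replicate 3 highest of all and 24 h replicate 3 lowest. Its fold change was -0.02 ± 0.12 on the log2 scale with a 95% interval from -0.27 to 0.23, and it was 0.22 when scaled by the FPKM totals.

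LDHA and LDHB, the subunits of lactate dehydrogenase, had 1 high library at 0 h, replicate 3. LDHA was at 1389, 1411 and 1825 CPM in 0 h replicates 1, 2 and 3 and at 1569, 1571 and 1828 CPM in the 24 h libraries. Within both times replicate 3 was the highest, and 0 h replicate 3 lay above 24 h replicates 1 and 2. The fold changes were 0.10 ± 0.13 for LDHA and 0.17 ± 0.13 for LDHB. Without 0 h replicate 3 they were 0.25 and 0.35, and LDHB was then called (adjusted p = 0.0357, with a range from 0.0357 to 0.905 over the alternatives).

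**Figure D3:**
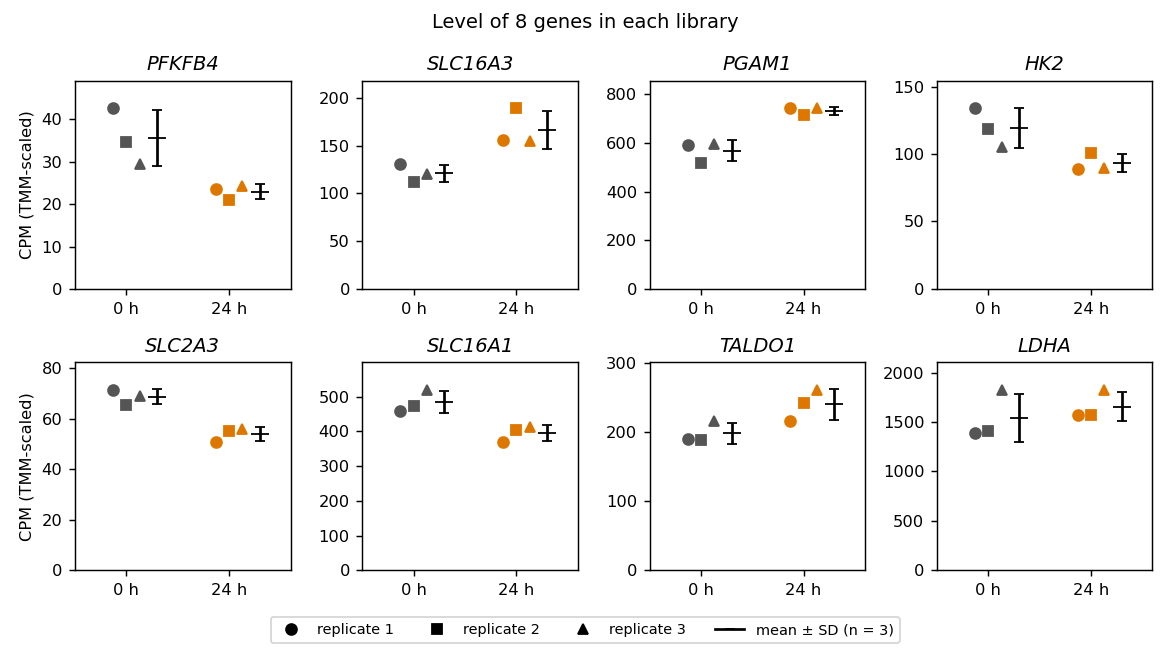
TMM-scaled CPM of 8 genes in each library, with a marker shape for each replicate number and the mean ± SD of 3 libraries in black, on axes that start at 0. PFKFB4, HK2, SLC2A3 and SLC16A1 are lower in every 24 h library than in any at 0 h, SLC16A3, PGAM1 and TALDO1 are higher, and LDHA overlaps, with 0 h replicate 3 nearly as high as the highest 24 h library.

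Of the 6 regulators, PFKFB4 alone was called. PFKFB4 was at 42.7, 34.7 and 29.5 CPM in 0 h replicates 1, 2 and 3 and at 23.6, 21.0 and 24.4 CPM in 24 h replicates 1, 2 and 3, a mean of 35.6 ± 6.64 against 23.0 ± 1.79 CPM (SD, n = 3 each). The groups did not overlap, and the 0 h libraries were spread more widely than those at 24 h. Its fold change was -0.63 ± 0.15 on the log2 scale with a 95% interval from -0.94 to -0.32 (edgeR adjusted p = 0.0298). Without single libraries the fold change ran from -0.75 to -0.48 and the adjusted p from 1.39e-04, without 0 h replicate 3, to 0.188. Scaled by the FPKM totals it was -0.39 and not called (adjusted p = 0.0755, with a range from 1.39e-04 to 0.306 over the 18 alternatives).

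PFKFB4 (ENSG00000114268.11) lies on chromosome 3 from 48517684 to 48562015 on the minus strand of GRCh38 in GENCODE 29. Its exons share 289 bases with those of UCN2, a urocortin gene on the same strand, so reads there cannot be assigned to either gene alone. UCN2 had 285 counts over the 6 libraries against 1024 for PFKFB4, and its fold change was -0.19 ± 0.28.

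PFKFB3, the isoform known for strong kinase activity, was the highest regulator, at 26.4 ± 2.995 FPKM at 0 h and 29.2 ± 0.275 FPKM at 24 h (SD, n = 3 each). Its scaled counts were 262, 231 and 208 CPM at 0 h and 239, 212 and 209 CPM at 24 h in replicates 1, 2 and 3. The groups overlapped, and the fold change was -0.09 ± 0.11 with a 95% interval from -0.32 to 0.14 (0.14 when scaled by the FPKM totals). The interval of PFKFB4, from -0.94 to -0.32, met that of PFKFB3 only at its upper end, and the difference between both genes was not tested.

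PFKFB2, the heart-type isoform, was at 39.3, 39.8 and 32.7 CPM at 0 h and at 41.4, 44.9 and 37.8 CPM at 24 h. These values overlapped, and the fold change was 0.15 ± 0.12. The PDK kinases had estimates of 0.06 ± 0.10 for PDK1, 0.16 ± 0.21 for PDK2 and 0.15 ± 0.16 for PDK3. PDK2 had only 37 to 70 counts per library, and its 95% interval from -0.29 to 0.60 was the widest of all members tested.

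The transporters split. SLC16A3 was at 130.4, 112 and 120.2 CPM in 0 h replicates 1, 2 and 3 and at 156, 189 and 155 CPM in 24 h replicates 1, 2 and 3, a mean of 121 ± 9.06 against 167 ± 19.7 CPM (SD, n = 3 each). Every 24 h library was above every 0 h library, and 24 h replicate 2 was the highest. The fold change was 0.46 ± 0.11 on the log2 scale with a 95% interval from 0.23 to 0.69 (edgeR adjusted p = 0.0305). It ran from 0.36 to 0.52 without single libraries, with adjusted p from 0.00256 to 0.222, and was 0.70 when scaled by the FPKM totals.

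SLC16A3 (ENSG00000141526.14) lies on chromosome 17 from 82228397 to 82261129 on the plus strand of GRCh38 in GENCODE 29. Its exons share 482 bases with those of CSNK1D, a casein kinase gene on the opposite strand. The sources do not say whether counting used strand. CSNK1D itself was at 0.03 ± 0.09 on the log2 scale.

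SLC16A1, the widely expressed lactate carrier, had 460.2, 474 and 520.4 CPM at 0 h and 369, 405 and 412 CPM at 24 h in replicates 1, 2 and 3. All 24 h libraries were below those at 0 h, yet the fold change of -0.29 ± 0.10 did not pass (edgeR adjusted p = 0.129), and it was -0.05 when scaled by the FPKM totals. Its exons share 175 bases with those of the antisense gene SLC16A1-AS1, which was at -0.46 ± 0.17. SLC2A3, the high-affinity glucose transporter GLUT3, was at 71.6, 65.7 and 69.2 CPM at 0 h and at 50.6, 55.3 and 55.8 CPM at 24 h. It was likewise lower in every 24 h library, with a fold change of -0.35 ± 0.10 (edgeR adjusted p = 0.0867, and 0.0464 without 0 h replicate 3, with a range from 0.0123 to 0.599 over the 18 alternatives). SLC2A1, the basal glucose transporter, was at 470.3, 421 and 398 CPM at 0 h and at 423, 429 and 364 CPM at 24 h. Its groups overlapped, and its fold change was -0.09 ± 0.11 (0.15 when scaled by the FPKM totals). The median of the 4 transporters was -0.19 on the log2 scale (0.05 scaled by the FPKM totals).

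Shares of isozymes were compared within each library from FPKM, where the scaling of the library cancels. SLC16A3 made up 20.4%, 17.6% and 17.2% of the summed FPKM of SLC16A1 and SLC16A3 in 0 h replicates 1, 2 and 3 and 27.5%, 29.7% and 25.3% in the 24 h libraries. The mean went from 18.4% ± 1.71 to 27.5% ± 2.19 (SD, n = 3 each), and the groups did not overlap. HK2 made up 23.9% ± 1.68 of HK1 and HK2 at 0 h and 18.3% ± 2.17 at 24 h, also without overlap. In an exact two-sided permutation test over libraries both gave p = 0.1, the smallest that 3 against 3 can give, and 0.35 after adjustment over the 7 shares computed, so neither could pass.

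The other shares overlapped between the times. PFKP held 69.4% ± 1.67 of the phosphofructokinase FPKM at 0 h and 66.9% ± 1.23 at 24 h. LDHB held 55.6% ± 1.10 and 56.9% ± 1.68 of lactate dehydrogenase, and SLC2A3 13.1% ± 0.815 and 11.1% ± 1.28 of SLC2A1 and SLC2A3. ENO2 held 3.60% ± 0.454 and 3.61% ± 0.361 of the enolase FPKM. ALDOC, with 4 to 7 counts per library, held 0.143% ± 0.0412 and 0.117% ± 0.0273 of the aldolase FPKM.

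**Figure D4:**
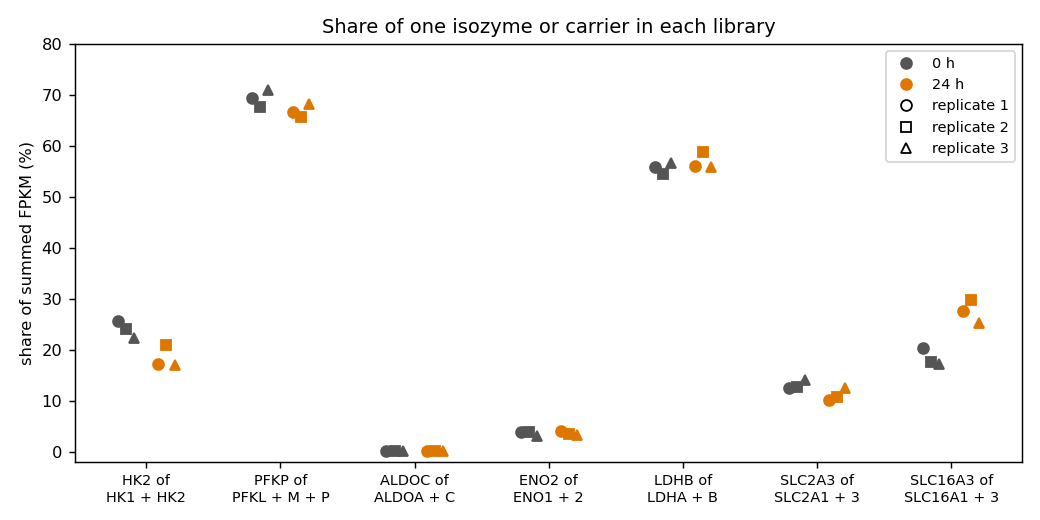
Share of 1 isozyme or carrier in the summed FPKM of its pair or trio, in percent, for each library, with 0 h in grey, 24 h in orange and a marker shape for each replicate number. SLC16A3 is higher in all 24 h libraries (25.3% to 29.7%) than at 0 h (17.2% to 20.4%), HK2 is lower, and the other shares overlap.

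In the pentose phosphate arm 0 of 7 genes were called by edgeR, 0 were called by DESeq2, and 1, TALDO1, had an unadjusted p under 0.05 (14.3%, beside 18.1% of all tested genes). Estimates were above 0 for 6 of 7, with a median of 0.15 on the log2 scale (0.39 scaled by the FPKM totals). The 24 h libraries lay above all 0 h libraries for PGD, TALDO1, TKT and ME1 and below them for 0, beside 10.9% and 11.7% of all tested genes.

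TALDO1, transaldolase of the non-oxidative branch, was at 190.2, 189 and 216 CPM in 0 h replicates 1, 2 and 3 and at 217, 243 and 262 CPM in 24 h replicates 1, 2 and 3. The gap between the groups was narrow, between 0 h replicate 3 and 24 h replicate 1. Its fold change was 0.28 ± 0.11 (edgeR adjusted p = 0.169, and 0.0261 without 0 h replicate 3, with a range from 0.00794 to 0.494 over the 18 alternatives). TKT, another enzyme of that branch, was at 628, 604 and 587 CPM at 0 h and at 657, 652 and 633 CPM at 24 h. These groups stood apart by little, and the fold change was 0.09 ± 0.10.

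ME1, cytosolic malic enzyme, was at 88.1, 88.2 and 95.3 CPM at 0 h and at 99.6, 100.1 and 112 CPM at 24 h. It was higher in every 24 h library, with a fold change of 0.20 ± 0.10 (edgeR adjusted p = 0.306). PGD, phosphogluconate dehydrogenase of the oxidative branch, was at 0.15 ± 0.10, and PGLS, the lactonase before it, at 0.13 ± 0.12. RPIA, ribose phosphate isomerase, was at 0.15 ± 0.15, and RPE, the epimerase, at -0.09 ± 0.13.

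**Figure D5:**
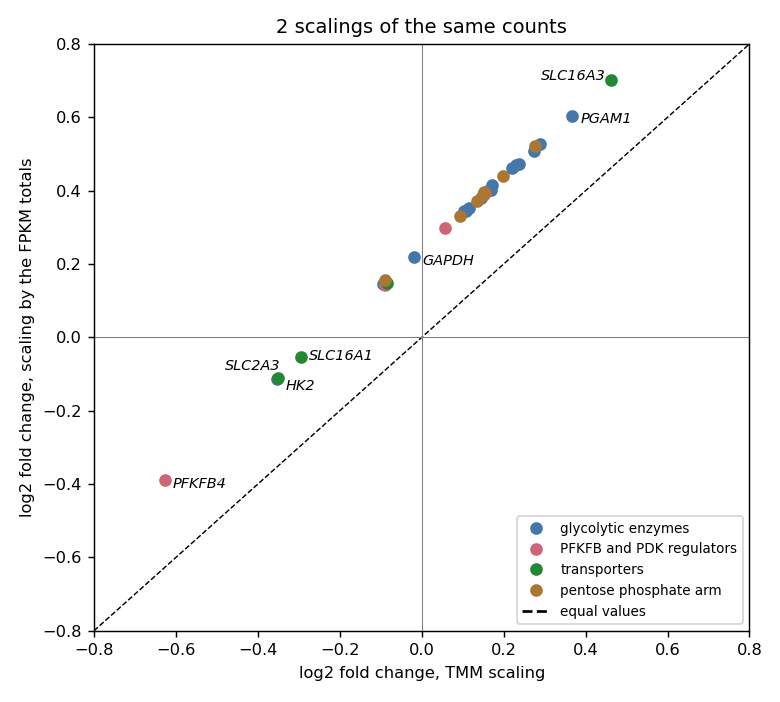
Log2 fold change of the 33 tested genes with TMM scaling (x axis) against scaling of the same counts by the totals behind the FPKM values (y axis), coloured by group, with a dashed line of equal values. All points lie above the line by about the 0.24 shift of all genes, so SLC16A3 and PGAM1 stay highest, PFKFB4 stays lowest, and GAPDH, PKM, PFKFB3, SLC2A1 and RPE cross 0.

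Genes next to these routes were counted from lists set by pathway role. The list of other glucose and lactate carriers also holds TXNIP and ARRDC4, arrestins that remove glucose transporters from the membrane. These were its only calls, 0 of 9 tested higher and 2 lower, beside 0.866% and 2.08% of all tested genes. TXNIP was at 137, 150.1 and 138 CPM in 0 h replicates 1, 2 and 3 and at 79.2, 93.1 and 79.7 CPM in 24 h replicates 1, 2 and 3. The groups were far apart, and TXNIP fell by 0.75 ± 0.10 on the log2 scale (edgeR adjusted p = 7.03e-04). The call held whichever of the 6 libraries was left out and in 17 of 18 alternatives, the exception being limma on log2(FPKM + 1) without a filter. ARRDC4 fell by 0.78 ± 0.18, from 14.9 ± 2.19 to 8.65 ± 1.24 CPM (SD, n = 3 each, edgeR adjusted p = 0.0300), and was called in 2 of the 6 fits without 1 library and not by DESeq2 or limma. Scaled by the FPKM totals, 1 gene of this list was called higher and 2 lower, beside 17.6% and 1.46% of all tested genes.

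In the glycerol phosphate and hexosamine branches 1 of 7 tested genes was called lower and 0 higher, beside 2.08% and 0.866% of all tested genes. This was OGT, which attaches N-acetylglucosamine to proteins, at -0.42 ± 0.10 (edgeR adjusted p = 0.0370, called in 1 of the 6 fits without 1 library and not when scaled by the FPKM totals). In that scaling 1 gene of the list was called higher and 0 lower, beside 17.6% and 1.46% of all tested genes. By edgeR 0 genes were called in 5 further lists, and their counts of unadjusted p under 0.05 stand beside 18.1% of all tested genes. Among 8 other isozymes, ADPGK, a glucokinase that uses ADP, was at 0.41 ± 0.12 and PGP, phosphoglycolate phosphatase, at 0.35 ± 0.11, and 6 of the 8 had an unadjusted p under 0.05. Among 14 genes of pyruvate entry and pyruvate dehydrogenase the values nearest to a call were MPC2, of the mitochondrial pyruvate carrier, at 0.25 ± 0.11 and DLAT, a subunit of the dehydrogenase, at 0.23 ± 0.11, with 1 unadjusted p under 0.05. Among 12 further pentose phosphate and NADPH genes they were RBKS, ribokinase, at 0.94 ± 0.33, from 10 to 44 counts per library, and IDH2 at 0.29 ± 0.10, with 4 unadjusted p under 0.05. Among 3 tested genes of gluconeogenesis PCK2 was at -0.48 ± 0.16 and SLC37A4, the glucose phosphate carrier, at 0.62 ± 0.27, with 2 unadjusted p under 0.05. Of 11 control factors 5 had an unadjusted p under 0.05, KLF4 was at -0.49 ± 0.17, and HIF1A, the hypoxia-inducible subunit, at 0.01 ± 0.12. DESeq2 called 0 genes in each of these 5 lists, whereas scaling by the FPKM totals gave 5, 2, 4, 2 and 3 higher calls in them, in the order named, and 0 lower, beside 17.6% and 1.46% of all tested genes.

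Several enzymes have processed pseudogenes that could take or lend reads. Of the 34 genes 15 have pseudogenes named after them in GENCODE 29, and 9 of those had counts on them. GAPDH has 62 such copies, and the 13 in the count table held 101 counts against 190985 for GAPDH itself. The largest share was that of RPE, whose copies held 1.45% as many counts as the gene. Exons of 18 of the 34 genes overlap those of another counted gene, so their values carry that uncertainty.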

How the data were processed

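RNA-seq was measured in 6 libraries of HK-2 cells. Per the labels' protocols, strand-marking libraries were made after ribosomal RNA depletion and read from both ends. Read counts per gene are as deposited, whole numbers that were not normalized, with 28565 genes. FPKM are the authors' values, deposited for 28561 genes and rounded to hundredths. The submitters' processing notes name TopHat2, bcl2fastq, GRCh38 and edgeR. Tool versions, counter, annotation and strand use are not given in the sources.

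The 24 h and 0 h libraries were compared on all genes in R 4.3.3 with edgeR 4.0.16 (quasi-likelihood, TMM, filterByExpr defaults, time as the only term). Adjustment was by Benjamini-Hochberg over 13389 genes, with calls under 0.05. The common biological coefficient of variation was 0.103. The code was tested on simulated data, where it recovered 99% of changes of 1 on the log2 scale and 63% of changes of 0.58. It made 11 false calls there. Changes were set only in genes above a minimum mean count, so recovery in genes with few counts was not measured. Every simulated gene had the same coefficient of variation, 0.103, and no library was made to stand apart. Smaller changes were not simulated, so how often they would be called was not measured. The totals behind the FPKM values were recovered as the median of count over FPKM in 3570 genes. Positions came from GENCODE 29 and promoters from RefSeq.

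The members and lists were chosen with earlier results of these data known. All 34 members were named, with values in every library for called members, the 2 with the smallest p in each group and the most abundant of each group. SLC16A1 and LDHA were added after their values were seen. In the lists of neighbouring genes, called genes or else the 2 with the smallest p were named. Of these 1 is not reported here, and HIF1A was added after its value was seen. Whether replicate libraries are separate cultures is not in the labels, so p-values measure only the spread between these libraries. The design text speaks of 2 biological replicates per treatment. Alternatives were other scalings and filters, DESeq2 1.42.0, limma 3.58.1 on log2(FPKM + 1) or log2(FPKM + 0.1), a replicate block and leaving out libraries.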

Additional observations from a re-analysis of the deposited data

How the results depend on the processing

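Of 33 members tested, 28 kept their sign in all 18 alternatives and 14 were called in none. RLE, upper-quartile and total-count scaling and the stricter filter left 1 member higher and 1 lower. Members called higher and lower were 15 and 0 when scaled by the FPKM totals, 6 and 0 by limma on log2(FPKM + 1), 5 and 0 with a pseudocount of 0.1, and 0 and 0 without the FPKM filter. They were 2 and 1 with no filter on low counts or by DESeq2, and 2 and 2 without both libraries numbered 3. Without single libraries they ran from 0 to 4 and from 0 to 3. Over all genes, higher and lower calls were 116 and 278 with TMM, 2354 and 195 by the FPKM totals, 345 and 395 with no count filter, 123 and 211 by DESeq2, 306 and 539 without both libraries numbered 3, and 21 to 574 and 92 to 923 without single libraries. For limma they were 1167 and 95, with the smaller pseudocount 1124 and 91, and without a filter 22 and 10. As shares of the genes in each fit, they were 0.866% and 2.08% with TMM and 17.6% and 1.46% by the FPKM totals. They were 1.21% and 1.38% with no count filter and 0.431% and 0.739% by DESeq2, both over 28565 genes. Without both libraries numbered 3 they were 2.28% and 4.02%, and without single libraries 0.153% to 4.18% and 0.672% to 6.72%. For limma they were 9.81% and 0.798%, then 9.45% and 0.765%, and without a filter 0.077% and 0.035%. Rises were 29.4% of calls with TMM, 92.3% by the FPKM totals, 46.6% with no count filter and 92.5% by limma.

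With the replicate number as a block, 6 members were called higher and 4 lower (PFKFB4, SLC16A3, GPI, HK2, PFKL, PFKM, PGAM1, SLC16A1, SLC2A3 and TALDO1). Of all tested genes 739 and 959 were called in that fit (5.52% and 7.16%). Deviations of same-numbered libraries correlated at 0.24, -0.02 and 0.42 across genes, for replicates 1, 2 and 3. Those of differently numbered libraries correlated at -0.37 to 0.23. The labels do not give the numbers as pairs, and the main fit did not use them. Whether same-numbered libraries share a culture or a batch was not tested.

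Signs changed for GAPDH, with 0.22 by the FPKM totals and all limma fits, 0.028 with no count filter, 0.075 without both libraries numbered 3 and -0.055 to 0.052 without single libraries. They changed, by the FPKM totals and then by limma on log2(FPKM + 1) and + 0.1, with the value without a filter equal to the former, for PKM (0.14, 0.14, 0.14), PFKFB3 (0.14, 0.14, 0.15), SLC2A1 (0.15, 0.15, 0.15) and RPE (0.16, 0.13, 0.14, and -0.16 to 0.030 without single libraries). The difference in the ENO2 share, 0.0069 percentage points, was -0.254 without 0 h replicate 3 and -0.192 without 24 h replicate 1. The cause was not tested. Total counts of 5028881 to 7248754 limit what could be seen in ALDOC, PDK2 and PDK3.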

Other observations

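HKDC1, a hexokinase-like gene named after its values were seen, stood at 50.3 ± 8.64 FPKM at 0 h and 46.2 ± 0.862 FPKM at 24 h (SD, n = 3 each), against 35.8 ± 1.06 and 46.7 ± 4.35 FPKM for HK1 and 11.3 ± 1.37 and 10.5 ± 1.17 FPKM for HK2. At 0 h it was the highest of these hexokinase genes in every library, with 60.2, 44.3 and 46.4 FPKM in replicates 1, 2 and 3 against 36.8, 36.0 and 34.7 FPKM for HK1. Its fold change was -0.36 ± 0.12 on the log2 scale and did not pass (edgeR adjusted p = 0.130).

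Several isozymes of other tissues and of gluconeogenesis were at or near 0 in these cells, with at most 1 count per library for HK3 and G6PC and at most 2 for PKLR, PFKFB1 and FBP1. PDK4, the starvation-induced kinase of pyruvate dehydrogenase, had 7 to 15 counts per library. BSG, the chaperone that SLC16A1 and SLC16A3 need at the membrane, was at 0.01 ± 0.10 on the log2 scale.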
